A study of Mus musculus with 28 samples.

Results

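The genes examined here are the 5 that make up the ISG15 conjugation system of the mouse: Isg15, Uba7, Ube2l6, Herc6 and Usp18. They are listed by name, and all 5 were found among the 54532 genes of the count table. RNA was sequenced in bulk from 28 cultures of BMDMs, bone marrow-derived macrophages grown for 7 days from the marrow of C57/B6JB mice aged 8 to 12 weeks with macrophage colony-stimulating factor. Control cultures received PBS, VWF cultures received 10 µg/ml of plasma-derived von Willebrand factor (VWF), a multimeric blood protein that tethers platelets, and LPS cultures received 100 ng/ml of bacterial lipopolysaccharide, a ligand of Toll-like receptor 4. Cells were collected after 3.5 h or 16 h, with 5 control, 5 VWF and 4 LPS cultures at either time, and all cultures contained 1 mM CaCl2. The study asked how VWF changes the macrophage transcriptome and how that change compares with the LPS response. The labels name no transgene or deletion in any group. They call the cultures of a group biological replicates without saying whether these came from separate mice, so p-values measure only the spread between these cultures.

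ISG15 is a small protein related to ubiquitin that is attached to other proteins when cells respond to type I interferon. Attachment runs through an enzyme chain like that of ubiquitin: the activating enzyme (E1) UBA7 charges ISG15, the conjugating enzyme (E2) UBE2L6 carries it, and an E3 ligase, in mouse mainly HERC6, passes it to the target. The protease USP18 removes ISG15 again, and it also binds the interferon receptor chain IFNAR2 and damps type I interferon signalling without need of its protease activity. Free ISG15 can be secreted and acts on lymphocytes through the integrin LFA-1. In macrophages the genes of this chain are known as interferon-stimulated genes, whose transcription is driven by a complex that holds STAT2 and IRF9 at a DNA element called the ISRE.

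The members lie on 4 chromosomes of the GRCm38 genome build (GENCODE M21 annotation). Isg15 (ENSMUSG00000035692) is at chr4:156199424-156200818 on the minus strand, and its exons overlap no other gene. Uba7 (ENSMUSG00000032596) is at chr9:107975505-107984060, Ube2l6 (ENSMUSG00000027078) at chr2:84798828-84810335, Herc6 (ENSMUSG00000029798) at chr6:57581000-57664632 and Usp18 (ENSMUSG00000030107) at chr6:121245906-121270917, all on the plus strand. Some exon sequence is shared with other annotated genes: 13.7% of the exon bases of Herc6 overlap Gm45193 and 3.48% of those of Uba7 overlap Gm20661 on the same strand, and 4.44% of those of Usp18 overlap Gm44148 on the other strand. How reads in such stretches were assigned is not given in the sources used here, so the part of the counts of these 3 genes that comes from such stretches is uncertain.

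Because the motif of the ISRE is short, it could be looked for in the promoters of the members. RefSeq promoter windows (GRCm38.p6, 250 bases before to 50 after the start site) were given for 4 of the 5 members, and Usp18 was not among them. The motif GAAANNGAAA, searched on both strands, was present in 3.44% of 32851 promoter windows of the genome. Isg15 held 3 overlapping matches, from 78 to 57 bases before its start site on the strand of the gene. Ube2l6, Uba7 and Herc6 held none in this window. The motif TTCNNNGAA of the GAS element, another element of interferon-responsive genes, was present in 8.30% of all windows and in none of the 4. The Isg15 window is printed because it holds the matches, which are in capitals, and the Ube2l6 window because this member had the smallest response to VWF at 16 h, a choice made after its values were seen. The windows are chr4:156200769-156201068 on the minus strand and chr2:84798578-84798877 on the plus strand, written 5′ to 3′ on the strand of the gene. A match is a description of the letters and not evidence of binding.
Isg15: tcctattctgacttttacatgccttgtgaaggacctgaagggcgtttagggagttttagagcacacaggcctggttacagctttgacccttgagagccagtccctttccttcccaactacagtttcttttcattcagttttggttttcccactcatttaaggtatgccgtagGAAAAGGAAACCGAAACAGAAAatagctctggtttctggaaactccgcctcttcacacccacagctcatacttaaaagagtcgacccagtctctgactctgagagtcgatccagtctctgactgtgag
Ube2l6: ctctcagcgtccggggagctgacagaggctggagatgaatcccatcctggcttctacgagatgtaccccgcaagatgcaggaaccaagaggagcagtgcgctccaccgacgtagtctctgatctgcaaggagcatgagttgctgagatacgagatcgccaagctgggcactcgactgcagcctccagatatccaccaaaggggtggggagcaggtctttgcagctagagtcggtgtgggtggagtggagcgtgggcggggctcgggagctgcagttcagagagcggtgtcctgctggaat

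Expression is given in CPM, the counts brought to a common library size by TMM across the 28 cultures, and group means are given with their SD and n. Levels of different genes were compared only in TPM, which also divides by exon length. Total counts per culture lay between 41131209 and 77699206. TMM factors were between 0.745 and 0.849 in LPS cultures and between 1.04 and 1.24 in control cultures, so that plain library size scaling moves the median change of all genes by between -0.54 and 0.44 on the log2 scale, depending on the comparison. Control replicate 5 and LPS replicate 4 at 16 h stood apart: their root mean square log2 difference from the other cultures of their group was 1.04 and 0.811 over 8867 genes, against 0.187 to 0.491 in the other 26 cultures. All 7 macrophage markers reached 10 TPM in every group, and the defining markers of T, B, NK and mast cells stayed below that level. Summed TPM of the 7 macrophage markers lay between 17970 and 29810 in control, 17770 and 23210 in VWF and 8689 and 15830 in LPS cultures at 3.5 h, so that the LPS cultures were below the others. At 16 h the ranges were 6437 to 34850, 28020 to 50050 and 5697 to 15200. Lyz2 had a median of 16710 TPM over all cultures, and the next highest macrophage marker, Cd68, one of 1923 TPM. The sum therefore reflects mainly Lyz2, and the single markers are not given by group here. Of 4 fibroblast markers, 2 reached 10 TPM in every group, and their sum lay between 3.73 and 142 TPM with overlap between all groups. At 3.5 h the 4 conventional dendritic cell markers summed to 0.548 to 0.929 TPM in control and 8.14 to 9.98 TPM in VWF cultures. In LPS cultures of that time they summed to between 10.4 and 12.0 TPM. At 16 h the ranges were 0.347 to 0.685, 0.561 to 1.58, and 7.36 to 12.1 TPM in the same order. Of these markers Xcr1 reached 11.5 TPM over all cultures. Flt3, Zbtb46 and Clec9a stayed at or below 0.0670, 1.23 and 0.757 TPM. For neutrophils the 4 markers summed to at most 3.08 TPM in control cultures. With VWF, where Ly6g was at 0, they summed to between 3.885 and 7.28 at 3.5 h and between 6.84 and 11.6 at 16 h. With LPS they summed to at most 4.19 TPM at 3.5 h and 2.97 TPM at 16 h. Camp reached 10.4 TPM over all cultures, and Ly6g, Elane and Mpo stayed at or below 0.118, 1.13 and 0.667 TPM. Among plasmacytoid dendritic cell markers, Klk1 was at 0 in 5 of the 6 groups. At 3.5 h the 4 markers summed to 2.37 to 5.27 TPM in control, 6.78 to 8.46 in VWF and 2.68 to 4.11 in LPS cultures. At 16 h these ranges overlapped, with medians of 14.2 TPM in control, 11.3 TPM in VWF and 14.0 TPM in LPS cultures. Cox6a2 reached 17.99 TPM over all cultures, and Siglech, Klk1 and Ccr9 stayed at or below 0.260, 0.0448 and 0.266 TPM. The part of such cells in the results was not tested. In bulk cultures, a change in the number of expressing cells and a change in RNA per cell cannot be told apart.

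Isg15, which encodes the modifier itself, ranked 2 of the 5 members per length in each untreated culture. Under either stimulus it became, per length, the most abundant member. At 3.5 h its level in the 5 control cultures, replicates 1 to 5, was 18.2, 12.8, 9.59, 7.30 and 6.57 CPM. In the VWF cultures it was 333, 517, 765, 852 and 404.5 CPM, and in the 4 LPS cultures 2360, 2308, 2802 and 3378 CPM. These 3 groups did not overlap, and the highest control culture was far below the lowest VWF culture. At 16 h control cultures had 9.95, 12.1, 16.4, 9.57 and 12.8 CPM, and the VWF cultures 337, 364, 302, 406 and 199.97 CPM. The LPS cultures at 16 h had 2946, 3753, 2595 and 4909.5 CPM, again without overlap between treatments. Isg15 was therefore higher with VWF by 5.62 ± 0.40 (SE) on the log2 scale at 3.5 h, a 49.2-fold change (edgeR, adjusted p = 4.30e-07), and by 4.61 ± 0.24 at 16 h, a 24.5-fold change (edgeR, adjusted p = 9.57e-07). With LPS the change against control was 7.89 ± 0.37 at 3.5 h (edgeR, adjusted p = 1.01e-08) and 8.15 ± 0.30 at 16 h (edgeR, adjusted p = 5.22e-08). Among the 8200 genes tested for VWF at 3.5 h, Isg15 ranked 43 by absolute change.

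Uba7, the E1 that activates ISG15, was expressed in untreated macrophages and changed by a smaller factor. Control cultures at 3.5 h had 36.3, 35.4, 37.0, 46.7 and 42.1 CPM, and VWF cultures had 93.0, 74.7, 75.3, 106 and 112 CPM. LPS cultures at 3.5 h had 133, 235, 171 and 158 CPM. These 3 groups were apart from each other. At 16 h Uba7 was at 31.3, 36.0, 43.3, 39.6 and 17.9 CPM in control cultures, with the lowest value in the replicate 5 that stood apart. VWF cultures had 105, 118, 136, 82.5 and 92.4 CPM, and LPS cultures 365, 351, 384 and 174 CPM, with the lowest value in the replicate 4 that stood apart. Each VWF culture was above each control culture and below each LPS culture. Uba7 was higher with VWF by 1.15 ± 0.14 on the log2 scale at 3.5 h (2.22-fold; edgeR, adjusted p = 3.52e-05) and by 1.55 ± 0.22 at 16 h (2.94-fold; edgeR, adjusted p = 4.05e-04). The change at 3.5 h was 0.94 with library size scaling, below the fold threshold. Without control replicate 5 the change at 16 h was 1.40. LPS raised Uba7 by 2.10 ± 0.16 at 3.5 h and 3.21 ± 0.29 at 16 h (edgeR, adjusted p = 5.48e-07 and 1.32e-05), and the latter was 3.26 without both cultures that stood apart.

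Ube2l6, the E2 of the chain, was, per length, the most abundant member in untreated macrophages. Control cultures at 3.5 h had 81.1, 66.0, 51.7, 40.4 and 46.1 CPM, VWF cultures 113, 161, 152, 166 and 119.6 CPM, and LPS cultures 406, 331, 402 and 392 CPM. At 16 h control cultures had 103, 121, 131, 102 and 185 CPM, with the highest value in the replicate 5 that stood apart. VWF cultures had 225, 253, 228, 283 and 199 CPM, and LPS cultures had 558, 695, 581 and 899 CPM. Treatments did not overlap at either time, although control cultures at 16 h reached the range of VWF cultures at 3.5 h. The VWF effect was 1.23 ± 0.20 on the log2 scale at 3.5 h (2.35-fold; edgeR, adjusted p = 4.03e-04). At 16 h the VWF difference was 0.77 ± 0.17 (1.71-fold; edgeR, adjusted p = 0.00739), below the fold threshold of 1, and 0.95 without control replicate 5. Against control, Ube2l6 was higher with LPS by 2.69 ± 0.21 at 3.5 h and 2.37 ± 0.23 at 16 h (edgeR, adjusted p = 6.81e-07 and 2.19e-05), the latter 2.39 without both cultures that stood apart. Untreated cultures themselves had more Ube2l6 at 16 h than at 3.5 h, by 1.23 ± 0.24 (edgeR, adjusted p = 0.00255), or 1.03 without control replicate 5.

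Herc6, the E3 ligase, was, per length, the least abundant member in untreated cultures. Its level was 6.52, 5.98, 4.53, 5.48 and 5.44 CPM in control cultures at 3.5 h. It was 32.6, 31.1, 35.4, 53.3 and 45.9 CPM with VWF, and 107, 140.4, 146 and 139 CPM with LPS. None of these groups overlapped. At 16 h the control cultures had 7.22, 10.0, 11.4, 8.80 and 4.88 CPM, and VWF cultures had 35.3, 42.2, 40.0, 29.7 and 28.6 CPM. LPS cultures had 315, 317, 323 and 264 CPM, with the lowest value in the replicate 4 that stood apart, still above the highest VWF culture. Herc6 was higher with VWF by 2.75 ± 0.18 on the log2 scale at 3.5 h (6.72-fold; edgeR, adjusted p = 2.24e-07) and by 1.94 ± 0.21 at 16 h (3.84-fold; edgeR, adjusted p = 6.91e-05). With LPS the changes were 4.52 ± 0.15 and 5.14 ± 0.23 (edgeR, adjusted p = 8.34e-10 and 1.53e-07). Without control replicate 5 the 16 h values were 1.81 for VWF and 5.00 for LPS.

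Usp18, the protease that removes ISG15, had the largest changes against control after the modifier. In control cultures at 3.5 h it was at 6.47, 3.53, 3.30, 4.00 and 2.38 CPM. VWF cultures had 96.1, 142, 164, 259 and 145 CPM, and LPS cultures 508, 600.5, 681 and 801 CPM. The lowest treated culture was far above the highest control culture. At 16 h control cultures had 3.82, 7.19, 7.28, 5.78 and 1.96 CPM, with the lowest value in replicate 5. VWF cultures had 103, 107, 99.3, 91.1 and 54.3 CPM, and LPS cultures 1035, 1085, 870.2 and 927 CPM. As at 3.5 h, treatments were apart. Usp18 was higher with VWF by 5.26 ± 0.34 on the log2 scale at 3.5 h (38.3-fold; edgeR, adjusted p = 2.31e-07) and by 4.01 ± 0.36 at 16 h (16.2-fold; edgeR, adjusted p = 1.79e-05), the latter 3.81 without control replicate 5. With LPS it was higher by 7.30 ± 0.31 and 7.53 ± 0.41 (edgeR, adjusted p = 5.13e-09 and 4.39e-07).

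**Figure D1:**
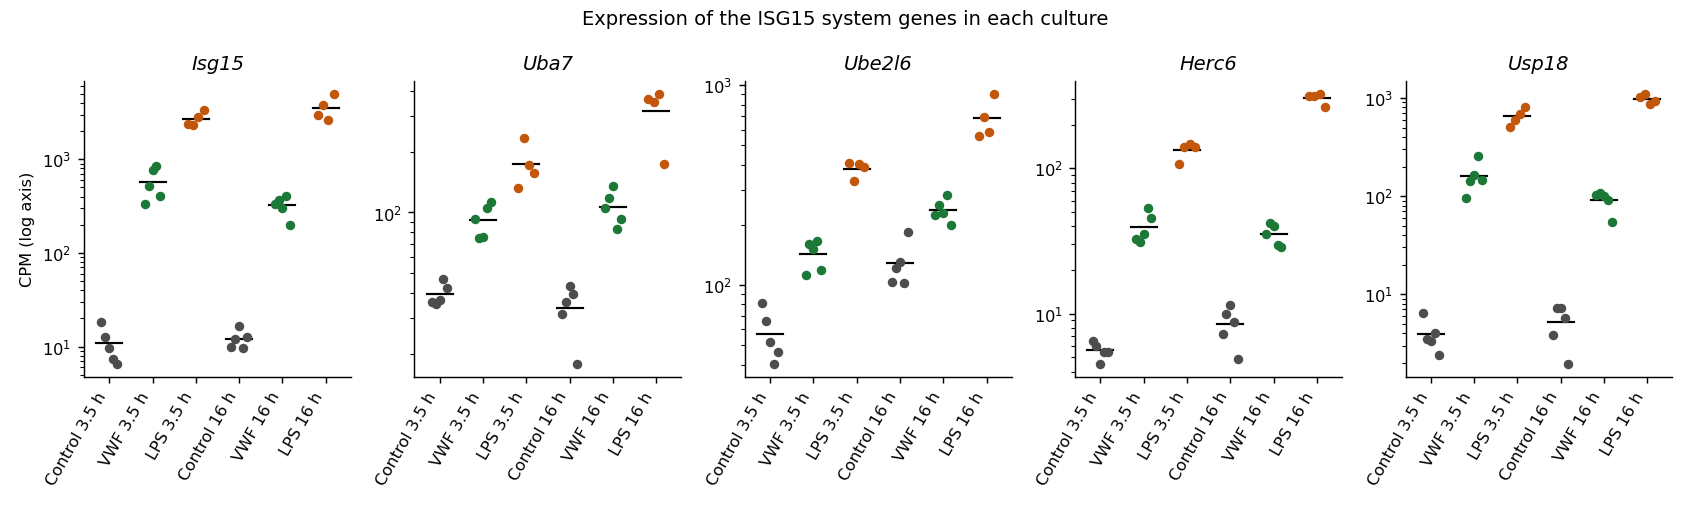
Expression of the 5 members in each culture, in CPM on a log axis, by treatment and time; points are cultures (replicate 1 at the left of each group) and bars are group means. Isg15, Herc6 and Usp18 span the widest range, and in every panel the VWF cultures lie between the control and the LPS cultures of their time.

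Counted over the system, all 5 members passed both thresholds with VWF at 3.5 h (adjusted p up to 0.05, and a log2 change of 1 or more in size), where 9.18% of the genes tested were called higher. At 16 h 4 of the 5 passed, against 4.55% of all genes, and Ube2l6 did not. With LPS all 5 were called higher at 3.5 h and at 16 h, against 12.8% and 15.3% of all genes. Herc6 and Usp18 were under the expression minimum of 10 TPM in each control culture and entered these comparisons only through the treated cultures, so for them a higher level was a condition of being tested. The other 3 members reached 10 TPM in control cultures, except Uba7 in 1 of the 5 at 16 h.

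**Figure D2:**
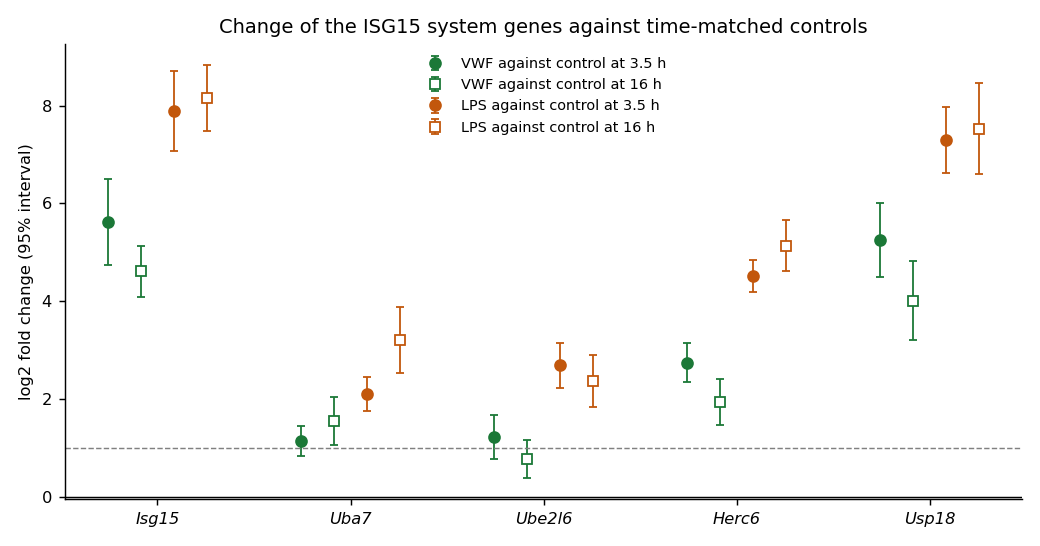
Log2 fold change of each member against control cultures of the same time, with 95% intervals from edgeR; the dashed line marks the fold threshold of 1. Isg15 and Usp18 changed most and Uba7 and Ube2l6 least under both stimuli, and the VWF value of Ube2l6 at 16 h, 0.77, lies below the line.

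VWF and LPS were then compared directly. At 3.5 h Isg15 was lower with VWF than with LPS by 2.26 ± 0.25 on the log2 scale, Ube2l6 by 1.44 ± 0.12, Herc6 by 1.76 ± 0.16 and Usp18 by 2.02 ± 0.23 (edgeR, adjusted p = 3.91e-05, 5.06e-06, 1.03e-05 and 4.80e-05). These 4 of the 5 members were called lower, against 6.71% of all genes. For Uba7 the difference was -0.93 ± 0.19 (edgeR, adjusted p = 0.00205), short of the fold threshold, and -1.03, past both thresholds, without VWF replicate 5 or without LPS replicate 1 of that time. At 16 h all 5 members were called lower with VWF than with LPS, against 14.5% of all genes. The log2 differences were -3.49 ± 0.26 for Isg15, -1.61 ± 0.23 for Uba7, -1.55 ± 0.16 for Ube2l6, -3.15 ± 0.13 for Herc6 and -3.46 ± 0.20 for Usp18 (edgeR, adjusted p between 7.57e-08 and 1.93e-04). The distance between the stimuli therefore widened for part of the system. From 3.5 h to 16 h the difference changed by -1.25 ± 0.37 for Isg15, -1.41 ± 0.22 for Herc6 and -1.45 ± 0.32 for Usp18 (edgeR interaction, adjusted p = 0.00957, 4.02e-05 and 0.00107), 3 of the 5 members against 14.3% of all genes. Uba7 and Ube2l6 did not pass, at -0.70 ± 0.31 and -0.13 ± 0.21 (edgeR interaction, adjusted p = 0.0667 and 0.635). The VWF cultures and the LPS cultures were each compared with the same controls, so their effects against control share those samples.

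Time was also examined within each treatment. In VWF cultures edgeR called 0 of the 5 members between 16 h and 3.5 h, where 21.4% of all genes were called in either direction. DESeq2 also called 0, and 3 members were at an unadjusted p under 0.05: Isg15 at -0.77 ± 0.26, Usp18 at -0.77 ± 0.25 and Ube2l6 at 0.80 ± 0.13. These 3 had adjusted p-values of 0.0224, 0.0166 and 2.16e-04 and fell short of the fold threshold only. The interval of the difference was -1.35 to -0.19 for Isg15, -1.31 to -0.23 for Usp18 and 0.51 to 1.08 for Ube2l6. These intervals reach past the fold threshold. For Uba7 and Herc6 the interval was -0.09 to 0.61 and -0.49 to 0.24. In LPS cultures Herc6 alone passed, at 1.26 ± 0.11 (edgeR, adjusted p = 1.50e-05), 1 of 5 members against 14.6% of all genes. Uba7 in LPS cultures was at 0.93 ± 0.26 (edgeR, adjusted p = 0.0135), and at 1.13 and past the threshold without LPS replicate 4 at 16 h, or 1.12 without LPS replicate 2 at 3.5 h. In control cultures only Isg15, Uba7 and Ube2l6 could be tested, and Ube2l6 was called higher at 16 h, where 4.12% of all genes were called higher.

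Whether an effect changed with time was tested as an interaction. The VWF effect on Usp18 was lower at 16 h than at 3.5 h by 1.22 ± 0.45 on the log2 scale (edgeR interaction, adjusted p = 0.0459), 1 of 5 members against 8.05% of all genes. That call held in 4 of the 20 fits that left out 1 culture, where the change lay between -1.48 and -0.98, and it was lost with library size scaling, without the expression filter and with another filter. For Isg15 the interaction was -0.99 ± 0.41 and for Herc6 -0.78 ± 0.27 (edgeR interaction, adjusted p = 0.0727 and 0.0313), both short of a threshold. The LPS effect on Uba7 was higher at 16 h by 1.13 ± 0.33 (edgeR interaction, adjusted p = 0.00997), 1 of 5 members against 13.5% of all genes. It was 0.98 without control replicate 5 at 16 h, below the fold threshold, and 1.18 without both cultures that stood apart.

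The order of the 6 group means was the same for Isg15, Herc6 and Usp18: control, then VWF at 16 h, VWF at 3.5 h, LPS at 3.5 h and LPS at 16 h. For these 3 genes the control groups of the 2 times overlapped, as did the VWF groups, and the LPS groups of Isg15 overlapped while those of Herc6 and Usp18 did not. Uba7 and Ube2l6 had a different order between the VWF groups, with the higher mean at 16 h, overlapping for Uba7 (92.2 ± 17.2 and 107 ± 21.1 CPM, n = 5 each) and apart for Ube2l6 (142 ± 24.5 and 238 ± 31.6 CPM, n = 5 each). The control groups of Ube2l6 were apart as well, at 57.1 ± 16.5 and 129 ± 33.9 CPM.

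Per length, the composition of the system turned over. In control cultures Ube2l6 made up between 52.0% and 58.5% of the summed TPM of the 5 genes at 3.5 h and between 67.1% and 81.7% at 16 h, while Isg15 made up between 22.0% and 33.0% and between 14.9% and 22.3%. With VWF Isg15 made up between 80.0% and 87.1% at 3.5 h and between 66.0% and 73.9% at 16 h. With LPS it made up between 87.6% and 89.5% and between 83.2% and 88.6%. A single transcript, that of the modifier, thus dominated in each treated culture and in no control culture. In level, Isg15 was at 47.4 ± 20.9 TPM in control and 1966 ± 577 TPM in VWF cultures at 3.5 h, and Ube2l6 at 94.2 ± 27.0 and 188 ± 16.1 TPM (n = 5 each). Herc6 had the lowest TPM of the 5 in each control and VWF culture, between 1.23 and 3.98 TPM without treatment.

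**Figure D3:**
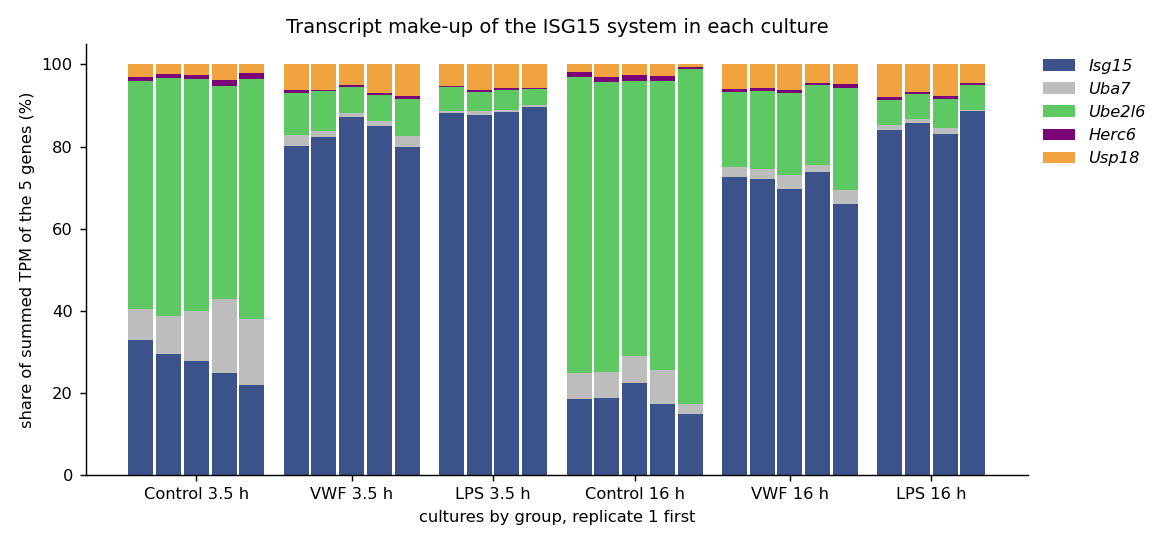
Share of each member in the summed TPM of the 5 genes, in percent, 1 bar per culture. Ube2l6 holds the largest share in the 10 control cultures and Isg15 in the 18 treated ones, with a smaller Isg15 share in VWF cultures at 16 h (66.0% to 73.9%) than at 3.5 h (80.0% to 87.1%).

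Ratios within a culture do not depend on library scaling. The ratio of Isg15 to Usp18, modifier to protease, had group medians between 8.33 and 15.4 in TPM, a narrower span than for the other enzymes. At 3.5 h its range in LPS cultures, 14.2 to 17.1, lay above that in control cultures, 6.73 to 13.3. In control replicate 5 at 16 h this ratio was 24.1, the highest of all cultures. Isg15 to Ube2l6, in contrast, had a median of 0.490 in control, 8.93 in VWF and 18.4 in LPS cultures at 3.5 h, and of 0.255, 3.79 and 14.1 at 16 h. For Isg15 to Uba7 the medians were 2.29, 61.3 and 151 at 3.5 h and 2.98, 27.2 and 83.1 at 16 h. Between modifier and E3, Isg15 to Herc6 had medians of 26.0, 196 and 254 at 3.5 h and 16.9, 106 and 130.2 at 16 h. In treated cultures the modifier thus gained most on the E1 and the E2, less on the E3 and least on the protease.

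Each enzyme was set beside a relative that serves ubiquitin and is expressed without stimulation. Uba7 was at a median of 0.187 of the TPM of Uba1, the E1 of ubiquitin, in control cultures at 3.5 h, at 0.323 with VWF and at 0.624 with LPS. At 16 h these medians were 0.153, 0.348 and 0.820. Ube2l6 to Ube2l3, a related E2, went from 0.847 to 2.20 and 4.67 at 3.5 h and from 1.93 to 3.15 and 7.73 at 16 h. Herc6 to Herc4, a small HERC ligase, had medians of 0.217, 1.11 and 3.73 at 3.5 h and 0.247, 0.895 and 6.30 at 16 h. Against Herc3, a ligase that was itself lower with LPS at 3.5 h, Herc6 had medians of 0.179, 1.59 and 12.4 at 3.5 h and 0.552, 1.51 and 22.8 at 16 h. Usp14 is a protease of ubiquitin that is also listed below among those linked to ISG15. Usp18 to Usp14 went from 0.122 to 4.33 and 25.4 at 3.5 h and from 0.232 to 3.75 and 72.9 at 16 h. The ranges of control, VWF and LPS cultures were apart for all 5 ratios at either time.

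A wider list held 20 E1, E2, HERC and ubiquitin-like genes. With VWF the 18 relatives that were tested lay between -0.36 and 0.57 on the log2 scale at 3.5 h, with a median of 0.17 against 0.00 for all genes tested. At 16 h the 16 tested lay between -0.52 and 0.46, with a median of 0.09 against -0.03. edgeR and DESeq2 both called 0 of them at either time, and 7 and 4 were at an unadjusted p under 0.05. With LPS the relatives lay between -1.42 and 0.83 at 3.5 h, where 13 of 18 were at an unadjusted p under 0.05, and between -0.61 and 1.18 at 16 h, where 7 of 16 were. The 4 E2 enzymes lay between 0.51 and 0.83 with LPS at 3.5 h, below the fold threshold. At that time 1 of 18 was called lower, Herc3 at -1.42 ± 0.17 (edgeR, adjusted p = 1.89e-05), where 11.8% of all genes were called lower. At 16 h the ubiquitin gene Ubb was called higher with LPS, at 1.18 ± 0.10 (edgeR, adjusted p = 5.00e-06), 1 of 16 tested against 15.3% of all genes. Herc3 was called higher in VWF than in LPS cultures at 3.5 h, at 1.19 ± 0.21 (edgeR, adjusted p = 9.48e-04), where 4.71% of all genes were.

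Of 7 other ligases and proteases linked to ISG15, Trim25, an E3 ligase that also acts on RIG-I, was the only one called against control. It was at 110 ± 11.4 CPM in control, 289 ± 50.2 in VWF and 845 ± 49.6 in LPS cultures at 3.5 h, and at 137 ± 8.79, 201 ± 17.7 and 731 ± 33.9 CPM at 16 h. The changes were 1.31 ± 0.12 with VWF and 2.89 ± 0.10 with LPS at 3.5 h (edgeR, adjusted p = 4.03e-06 and 9.68e-10). At 16 h Trim25 was higher with LPS by 2.38 ± 0.10 (edgeR, adjusted p = 8.95e-08), and the VWF difference was 0.43 ± 0.08, below the fold threshold, so that edgeR and DESeq2 both called 0 of the 5 tested there, 3 of them at an unadjusted p under 0.05. Trim25 was lower with VWF than with LPS by 1.56 ± 0.12 at 3.5 h and 1.89 ± 0.09 at 16 h (edgeR, adjusted p = 3.24e-06 and 1.15e-07). Arih1 and the proteases Usp5, Usp14, Usp16 and Usp21, where tested against control, lay between -0.81 and 0.33, and Usp13 was under the expression minimum.

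The signalling genes upstream of the system followed different time courses. Ifnb1, which encodes interferon beta, had 0 to 7 counts in control, 156 to 285 in VWF and 4022 to 8754 in LPS cultures at 3.5 h. At 16 h it had 0 to 1 counts in control, 2 to 11 in VWF and 57 to 186 in LPS cultures, and it was under the expression minimum in all 3 groups. Of 10 genes of interferon signalling, 7 of 10 tested were called higher with VWF at 3.5 h and 2 of 9 at 16 h, against 9.18% and 4.55% of all genes, with medians of 1.44 and 0.65. With LPS 6 of 10 and 7 of 9 were called higher, against 12.8% and 15.3%, with medians of 1.71 and 1.62. Between the stimuli, 3 of 10 were called lower with VWF at 3.5 h and 4 of 9 at 16 h, against 6.71% and 14.5%. Ifnb1 was under 10 TPM in each control culture and was tested only through treated cultures. Stat2 and Irf9, parts of the complex that binds the ISRE, were higher with VWF at 3.5 h by 3.24 ± 0.18 and 1.77 ± 0.07 (edgeR, adjusted p = 5.79e-08 and 4.72e-09). At 16 h Stat2 was still higher, by 1.93 ± 0.36 (edgeR, adjusted p = 0.00248), and Irf9 was at 0.93 ± 0.11. Irf7, a transcription factor of interferon genes, had a VWF effect of 1.67 ± 0.33 at 3.5 h and 4.57 ± 0.31 at 16 h (edgeR, adjusted p = 0.00158 and 2.67e-06), a change with time of 2.92 ± 0.44 (edgeR interaction, adjusted p = 3.22e-05) where that of Usp18 was negative. Irf1 had a VWF effect of 3.01 ± 0.23 at 3.5 h and 0.56 ± 0.11 at 16 h, the latter not called, and its change with time was -2.43 ± 0.26 (edgeR interaction, adjusted p = 3.50e-07). Irf3 and Jak1 were not called in these 4 comparisons.

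Both chains of the interferon receptor were called higher with VWF at 3.5 h, Ifnar1 by 1.204 ± 0.11 and Ifnar2, the chain that USP18 binds, by 1.09 ± 0.08 (edgeR, adjusted p = 3.41e-06 and 3.08e-07). At 16 h they were at 0.76 ± 0.14 and 0.65 ± 0.23, not called. Among 4 tested genes for LFA-1 and the partners of USP18, 3 and 2 were called higher with VWF at 3.5 h and 16 h, and 2 and 3 with LPS, against the same shares of all genes. Ifnar2 and Stat2 also belong to the signalling list and are counted there too, and Itgal was the only other gene called. Itgal, the LFA-1 chain specific to that integrin, was at 68.8 ± 24.3 CPM in control, 351 ± 84.9 in VWF and 153 ± 25.8 in LPS cultures at 3.5 h, and was higher in VWF than in LPS cultures by 1.19 ± 0.18 (edgeR, adjusted p = 3.09e-04). At 16 h the VWF and LPS cultures were at 228 ± 49.5 and 198 ± 69.5 CPM and differed by 0.18 ± 0.21. Its partner chain Itgb2 was not called against control.

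Reported target proteins of ISG15 were also listed, 2 of which belong to the signalling list as well. With VWF 4 of 8 tested were called higher at 3.5 h and 4 of 8 at 16 h, and with LPS 4 of 8 at either time, against 9.18%, 4.55%, 12.8% and 15.3% of all genes. The same 4 genes were called in each of these comparisons: the RNA sensors Ifih1 and Ddx58, the kinase Eif2ak2 and the antiviral GTPase Mx1. Mx1 at both times and Ifih1 at 16 h were under 10 TPM in each control culture, so a higher level was a condition of their being tested. Ifih1 was higher with VWF by 3.80 ± 0.18 at 3.5 h and 1.67 ± 0.21 at 16 h, and Mx1 by 6.77 ± 0.41 and 3.21 ± 0.42 (edgeR, adjusted p between 2.17e-08 and 2.16e-04). Eif4e2, Becn1, Irf3 and Jak1 were not called in any of the 4 comparisons with control. Of the listed genes with a RefSeq promoter window, the ISRE motif was found in Ddx58, Eif2ak2, Ifih1, Stat2 and Skp2 beside Isg15. In Ddx58, Eif2ak2 and Ifih1 the match lay after the start site. The motif was in 3.44% of all windows, and how many listed genes had a window is not given here.

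**Figure D4:**
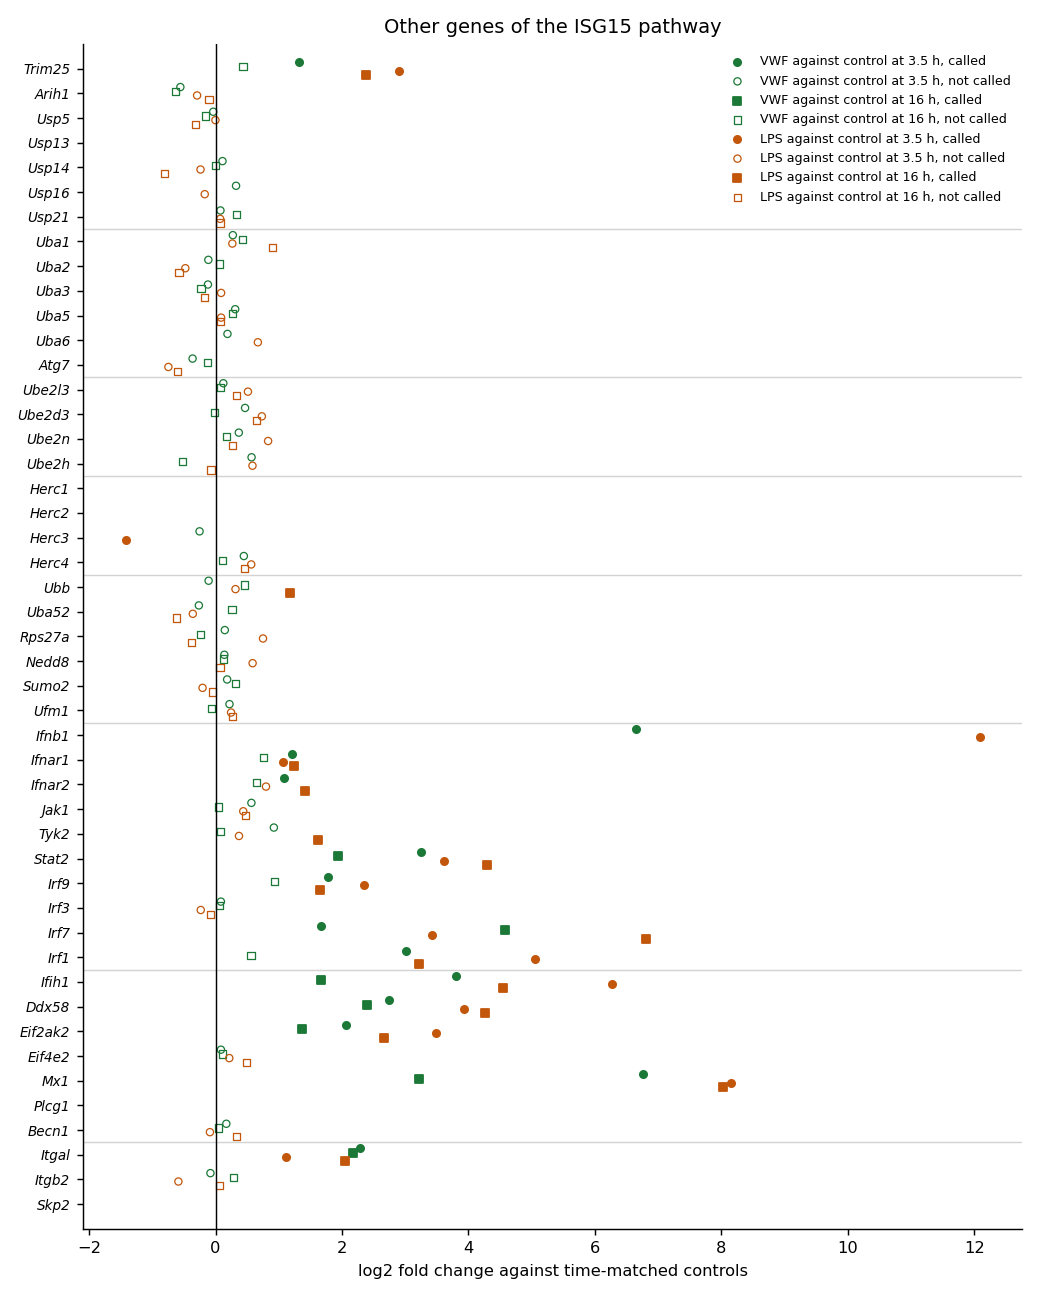
Log2 fold change against time-matched control cultures for the other listed genes, grouped from top to bottom as ISG15 ligases and proteases, E1, E2 and HERC relatives, ubiquitin-like genes, interferon signalling, targets and LFA-1 partners; filled symbols passed both thresholds, rows without symbols were not tested, and the Ifnb1 values rest on 0 to 7 counts in control cultures. Filled VWF symbols lie in the interferon signalling, target and LFA-1 blocks and at Trim25 (1.31 at 3.5 h), and none lie among the relatives.

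Genes with the pattern most like each member were found by the root mean square difference of log2 CPM over the 28 cultures, centred per gene, among 8866 other genes. The nearest gene to Usp18 was Isg15 itself, at 0.456, where the median over all genes was 3.16. Next to Isg15 were AW112010, Usp18, Ifit3 and Gbp2, at 0.321, 0.456, 0.521 and 0.657, where the median was 3.38. Herc6 was nearest to Phf11b, Ddx60 and Tap1 (0.339 to 0.390). Ube2l6 was nearest to the immunoproteasome genes Psmb9 and Psmb8 and to Dck (0.267 to 0.299), and Uba7 to Sp100, Lgals9 and Nectin4 (0.289 to 0.313). These likenesses are a description of 28 cultures in 6 groups and carry no test. By distance from Isg15, Herc6 ranked 74 (1.52), Uba7 328 (2.36) and Ube2l6 347 (2.41) of the 8866 genes. All were nearer than the median gene. From Herc6 and Usp18 the other members were also nearer than the median (2.06 and 3.16). From Uba7, Isg15 ranked 8682 (2.36) and Usp18 8515 (2.09), farther than the median (1.26). From Ube2l6 they ranked 8667 (2.41) and 8540 (2.21), again farther than the median (1.29). Uba7 and Ube2l6 were at 0.723 from each other. The distance is not scaled for how widely a gene varies.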

How the data were processed

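RNA from 28 cultures was sequenced by the authors as paired-end reads of 150 bases, and gene counts were deposited by the authors as raw counts without normalisation. The submitters' processing notes name STAR and the GRCm38 (mm10) build. The gene annotation, strand setting and treatment of reads with several matches are each not given in sources used here. CPM (TMM) and TPM (union exon lengths, GENCODE M21) were computed from the counts.

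Samples were grouped by their labels. Each of 12 comparisons had a separate fit of the groups it compares, in edgeR 4.0.16 with R 4.3.3 (quasi-likelihood test, TMM, robust), over genes with at least 10 TPM in at least 1 culture of the comparison, with Benjamini-Hochberg adjustment over all genes tested. A gene was called at an adjusted p of at most 0.05 and an absolute log2 fold change of at least 1. Values after ± are SE for log2 changes and SD for levels, and intervals are 95%. The members and gene lists were chosen with earlier results of these data known, and some listed genes are not reported here. All 5 members are named. Other genes are named because they were called, or as a partner of a member, or as the 3 nearest in pattern. Not every call of a listed gene is described above. Among those left out, Tyk2 was called higher with LPS at 16 h. In VWF cultures at 16 h against 3.5 h, Usp16 was called lower and Ubb higher. For the change of the VWF effect with time, Ube2h was called lower. Irf9, Irf3, Jak1, Itgb2, Eif4e2 and Becn1 at values that were not called, and the ligases beside Trim25, were added after their values were seen. The edgeR fit was also run on simulated counts for some of the comparisons. That simulation did not model the differences in TMM factors or the cultures that stood apart, and its outcome is not reported here. No 2 cultures were alike within sampling noise (lowest chi-square per degree of freedom 15.8).

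Same-numbered cultures deviated together in every pair only for VWF against LPS at 16 h (correlations 0.20 to 0.81 over 4 pairs), and the labels do not say what a number stands for. Alternatives were DESeq2 1.42.0, other scalings, filters and fits, a replicate block and leaving out each culture.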

Additional observations from a re-analysis of the deposited data

Results flagged for a closer look

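In LPS replicate 4 at 16 h, Uba7 was at 174 CPM where the other 3 cultures of the group lay between 351 and 384, and Herc6 was at 264 CPM where the others lay between 315 and 323. In both cases the gap to the nearest culture was a large part of the range of the group (0.844 and 0.869). These were 2 of 30 groups checked with Dixon's rule at the 95% level. Both flags fell on the same culture and so are not independent, and their cause was not tested. This culture also stood apart over all genes.

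Effects that differed between the times by an edgeR interaction test were those of VWF on Herc6 (-0.78) and Usp18 (-1.22), and those of LPS on Uba7 (1.13) and Herc6 (0.63). The difference between VWF and LPS changed with time for Isg15 (-1.25), Herc6 (-1.41) and Usp18 (-1.45). The values for Herc6 under VWF and under LPS passed the adjusted p but not the fold threshold.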

How the results depend on the processing

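Of 58 fold changes of the members, all 58 had the same call with 1 fit over all groups, with median-of-ratios scaling and with the replicate block, 57 with DESeq2, with filterByExpr and without the filter, and 56 with library size scaling. With the replicate block the number of members called was 5, 4, 5, 5, 4 and 5 in the 6 comparisons between treatments, 1, 0 and 1 between times and 1, 1 and 3 for the changes with time, so it changed no call. In the fits that left out 1 culture, 657 of 680 fold changes had the same call, 17 lost it and 6 gained it.

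The number of members whose VWF effect changed with time was 1, and 2 with DESeq2, 0 with library size scaling, 0 without the filter, 0 with filterByExpr and 0 to 2 without 1 culture. For the change of the LPS effect it was 0 to 1, and for LPS at 16 h against 3.5 h 1 to 2, without 1 culture. Directions reversed for Herc6 in VWF cultures over time (0.012 without VWF replicate 4 at 3.5 h; lowest -0.19 without 1 culture), for the change of the LPS effect on Isg15 (-0.019) and Usp18 (-0.028) without control replicate 1 at 3.5 h (highest 0.40 and 0.39), and for the change of the VWF-LPS difference of Ube2l6 (0.059 with library size scaling, 0.052 without LPS replicate 4 at 16 h; lowest -0.21). None of these was called. The cause was not tested.

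With library size scaling, mean levels moved by more than 1 SD for Isg15 (2153 CPM, LPS 3.5 h), Uba7 (46.7, control 3.5 h), Ube2l6 (305, LPS 3.5 h), Herc6 (6.63, control 3.5 h; 106 and 244, LPS 3.5 h and 16 h) and Usp18 (514 and 782, LPS 3.5 h and 16 h). The share of all called genes that were higher went from 62.4% to 48.8% for VWF and from 52.1% to 24.7% for LPS against control at 3.5 h, from 55.2% to 26.0% for LPS at 16 h, from 41.2% to 68.8% and from 43.3% to 71.1% for VWF against LPS at 3.5 h and 16 h, from 40.5% to 51.8% for the change of the VWF effect and from 42.8% to 56.6% for that of the VWF-LPS difference.

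Without the filter and with filterByExpr more genes were tested, and the genes called went from 1206 to 2366 and 2099 (VWF, 3.5 h), 679 to 1378 and 1362 (VWF, 16 h), 2010 to 4542 and 3917 (LPS, 3.5 h), 2210 to 4224 and 4087 (LPS, 16 h), 856 to 1942 and 1776 (VWF against LPS, 3.5 h), 1932 to 4242 and 3897 (VWF against LPS, 16 h), 759 to 1524 and 1565 (control over time), 1696 to 3974 and 3458 (VWF over time), 1964 to 4298 and 4116 (LPS over time), 1171 to 1904 and 1972 (change of the VWF effect), 2301 to 3613 and 3790 (change of the LPS effect) and 2052 to 3528 and 3576 (change of the VWF-LPS difference). Leaving out both cultures that stood apart was chosen after seeing the data. The lowest counts of any member were those of Usp18 in control cultures, 111 to 640 per culture.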
